A study of Mus musculus with 6 samples.

Results

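Of 10 neutrophil granule and stefin genes, chosen by name from the 54309 genes of the table, 8 had a read in any tumor and 6 reached a mean of 10 normalized counts. The genes are *S100a8*, *S100a9*, *Csf3r*, *Lcn2*, *Retnlg*, *Ngp*, *Ly6g* and the stefins *Stfa2*, *Stfa2l1* and *Stfa3*, and the sum of the stefins is given as well. They were measured by bulk RNA sequencing of 6 MCA205 tumors, a fibrosarcoma line made with a chemical carcinogen, grown under the skin of the right flank in female C57BL/6J mice that were 7 weeks old. Each mouse received 1000000 cells. The 3 tumors of the FF-10101 group came from mice that drank FF-10101, a covalent inhibitor of FLT3 and CSF1R, at 0.1 mg/mL from day 1 to day 8. The 3 tumors of the Control group came from mice that drank water alone, and all tumors were taken on day 8. Whole tumors were sequenced, so every cell type of the graft and of the tissue around it contributed reads. The labels give a treatment and a replicate number, not a litter or cage, so the p values measure the spread between these tumors.

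Neutrophils leave the bone marrow under the control of G-CSF, whose receptor is encoded by *Csf3r*, and reach tissue by following ligands of CXCR2. Their granules are filled in order as they mature: myeloperoxidase and elastase are made in promyelocytes, lactoferrin, NGP and the LCN2 lipocalin in myelocytes, and gelatinase later still. Mature cells have largely stopped transcribing the early granule genes, while S100A8 and S100A9, which pair to form calprotectin, fill their cytosol. Stefins of the A family are cytosolic inhibitors of cysteine cathepsins, and mice carry a cluster of them on chromosome 16. They are made by neutrophils and also by cells of the epidermis.

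Total reads per tumor lay between 9143806 and 9643535 in the Control group and between 9277019 and 13258258 in the FF-10101 group. Where no read was found, up to 3 reads remain possible, and that limit came to between 2.29 and 3.38 normalized counts. It covers counting error only. One tumor of each group stood apart. In Control 1, 67.6% of the 13963 genes whose mean reached 10 normalized counts lay nearer to the FF-10101 mean than to the other Control tumors, and in FF-10101 1 the reverse held for 51.1%, against 26.1% to 35.9% in the other tumors. FF-10101 1 also held 519 reads of *Krt5* and 634 of *Krt14*, the keratins of basal epidermis, and Control 3 held 12 and 28, while the remaining tumors held none of either. Not every gene placed Control 1 near FF-10101. The macrophage genes *Adgre1* and *Mrc1* had 2995 and 3658 normalized counts in Control 1, against 997 to 1634 and 1104 to 2105 in FF-10101, and *Pf4*, *Lyz2* and *Cxcr2* likewise lay on the Control side. The label of Control 1 was used as given and could not be checked. Results of the members are therefore given with and without Control 1. Because Control 1 was singled out for lying near the FF-10101 group, its removal widens differences between the groups in general, and the calls made without it are not independent support.

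The stefin copies differ in sequence by unequal amounts, which sets how far their reads can be told apart. Over the coding sequence, *Stfa2l1* was 96.4% identical to *Stfa2* and 81.6% identical to *Stfa3*. The first 120 coding bases are shown from the GENCODE vM21 transcripts because they show this difference, with bases that differ from *Stfa2l1* in capitals.
Stfa2l1: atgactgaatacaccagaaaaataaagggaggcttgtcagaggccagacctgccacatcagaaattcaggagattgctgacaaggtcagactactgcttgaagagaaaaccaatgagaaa
Stfa2: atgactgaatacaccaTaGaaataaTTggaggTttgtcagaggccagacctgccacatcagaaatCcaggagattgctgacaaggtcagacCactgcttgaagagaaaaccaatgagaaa
Stfa3: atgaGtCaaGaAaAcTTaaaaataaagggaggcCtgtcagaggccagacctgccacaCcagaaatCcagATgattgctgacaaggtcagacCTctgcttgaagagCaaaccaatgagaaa
*Stfa2* differed from *Stfa2l1* at 7 of these bases and *Stfa3* at 15. Of all stretches of 31 bases in the longest coding transcript, 58.4% in *Stfa2l1*, 66.7% in *Stfa2* and 100% in *Stfa3* occurred in no other gene of the annotation. *Stfa2l1* shared 29.3% of its stretches with *Stfa2*. Every stretch of *Stfa3* was thus its own, whereas part of the reads of *Stfa2l1* and *Stfa2* could be assigned only by estimation. For *S100a8*, *S100a9*, *Ngp* and *Lcn2* 100% of the stretches were unique, for *Retnlg* 94.5%, for *Ly6g* 90.5% and for *Csf3r* 75.5%. *Csf3r* shared 21.1% with AC105061.2, a gene with 1 read over all tumors.

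Upstream sequences are shown for *S100a8*, *S100a9*, *Lcn2* and *Stfa2l1*, the members that did not overlap between groups, and for *Stfa2*, the copy without a read. Each is the 250 bases before the gene's start in RefSeq (GRCm38.p6), which is another build than the one the authors used. Capitals mark 2 words searched on both strands, TTGCNNAA, bound by C/EBP factors, and GAGGAA, bound by PU.1, both regulators of myeloid genes. No match of one word overlapped a match of the other in the sequences shown.
S100a8 (chr3:90668821-90669070, + strand): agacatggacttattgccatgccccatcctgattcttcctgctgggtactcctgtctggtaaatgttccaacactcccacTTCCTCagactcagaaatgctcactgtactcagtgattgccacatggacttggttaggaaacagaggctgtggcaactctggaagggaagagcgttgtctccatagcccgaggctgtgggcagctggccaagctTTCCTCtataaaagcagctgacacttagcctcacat
S100a9 (chr3:90695722-90695971, - strand): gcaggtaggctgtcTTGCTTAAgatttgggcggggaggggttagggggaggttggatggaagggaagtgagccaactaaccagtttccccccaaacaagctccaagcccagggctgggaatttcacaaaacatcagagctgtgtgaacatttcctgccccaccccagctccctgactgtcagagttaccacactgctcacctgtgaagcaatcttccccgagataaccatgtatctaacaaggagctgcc
Lcn2 (chr2:32387740-32387989, - strand): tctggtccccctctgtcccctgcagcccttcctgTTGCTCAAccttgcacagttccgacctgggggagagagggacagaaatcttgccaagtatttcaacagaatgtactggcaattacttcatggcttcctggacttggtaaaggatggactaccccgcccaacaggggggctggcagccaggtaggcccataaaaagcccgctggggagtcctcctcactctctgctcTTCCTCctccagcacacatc
Stfa2l1 (chr16:36156561-36156810, + strand): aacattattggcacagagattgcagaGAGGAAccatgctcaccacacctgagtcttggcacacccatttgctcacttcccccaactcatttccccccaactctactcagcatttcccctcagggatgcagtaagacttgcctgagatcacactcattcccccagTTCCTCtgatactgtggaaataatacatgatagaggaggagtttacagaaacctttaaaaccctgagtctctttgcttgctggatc
Stfa2 (chr16:36408364-36408613, - strand): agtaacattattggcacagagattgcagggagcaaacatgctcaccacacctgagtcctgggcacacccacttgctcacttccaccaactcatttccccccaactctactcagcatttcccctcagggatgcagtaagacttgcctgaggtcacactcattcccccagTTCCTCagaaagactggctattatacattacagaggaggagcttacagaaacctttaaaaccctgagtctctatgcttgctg
The C/EBP word was present upstream of 5 of the 10 members, against 9.56% of 32851 windows of the same length. The PU.1 word was present upstream of 7 of the 10, against 23.3% of windows. These include *Stfa2*, *Stfa2l1* and *Stfa3*, whose windows were 80.2% to 89.4% identical and are not separate matches. *Ly6g* was searched in both of its windows and counted if either held the word, whereas the shares count each window. Its C/EBP word lay in just the first of them. *S100a8* held the PU.1 word at 2 places and no C/EBP word, and *S100a9* held the C/EBP word at 1 place and no PU.1 word. *Stfa2l1* and *Stfa2* were 89.4% identical over this window. Of the PU.1 words, 2 lay upstream of *Stfa2l1* and 1 upstream of *Stfa2*. These are matches of letters, and binding was not measured.

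*S100a8* and *S100a9*, which encode the subunits of calprotectin, were higher in every FF-10101 tumor than in every Control tumor. *S100a8* (ENSMUSG00000056054.10) had 146, 48.9 and 49.9 normalized counts in Control tumors 1 to 3 and 241, 183 and 237 in FF-10101 tumors 1 to 3. Control 1 was the highest Control tumor and still lay below the lowest FF-10101 tumor. The means were 81.7 ± 56.0 in Control and 221 ± 32.3 in FF-10101 (SD, n = 3 tumors each), a log2 fold change of 1.61 (95% interval 0.64 to 2.58). *S100a9* (ENSMUSG00000056071.13) had 216, 60.9 and 47.7 in Control and 347, 262 and 400 in FF-10101. Again Control 1 lay between the other Control tumors and the FF-10101 group. The log2 fold change of *S100a9* was 1.94 (0.73 to 3.14). Neither gene passed the test over all genes, since limma gave an adjusted p of 0.229 for both. Without Control 1 both rose, *S100a8* by a log2 fold change of 2.13 (adjusted p = 0.000881, limma) and *S100a9* by 2.60 (adjusted p = 0.000608, limma). Without FF-10101 1, the other tumor that stood apart, the adjusted p was 0.258 for both in limma. In whole tumors, more cells of a type and more RNA per cell cannot be told apart.

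**Figure D1:**
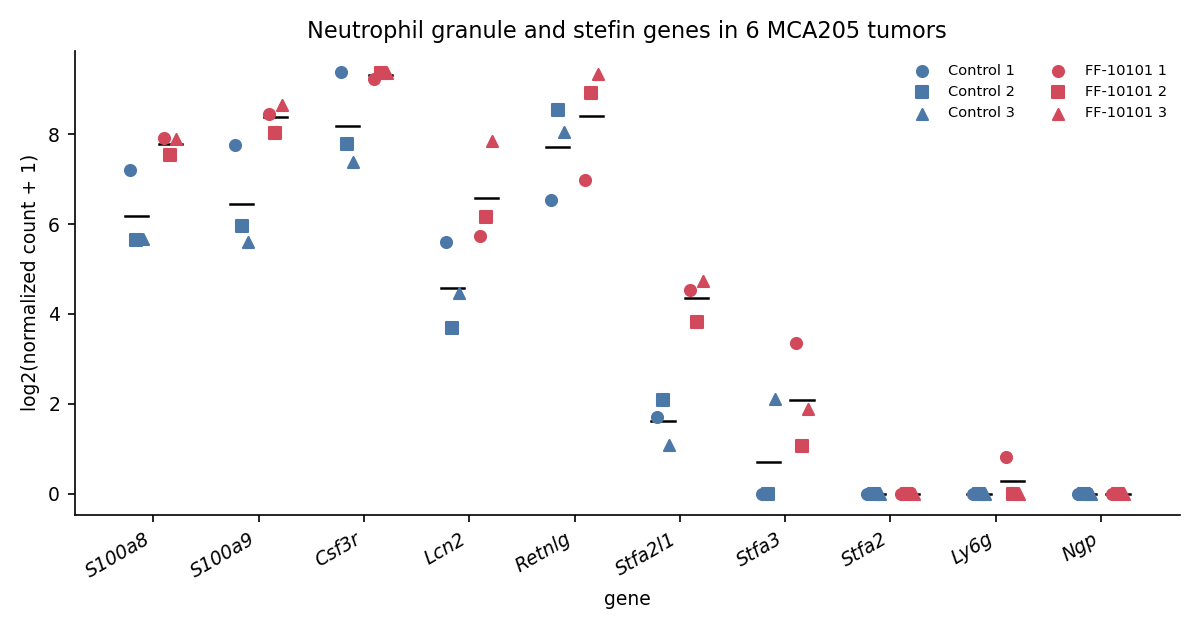
Levels of the 10 genes in each tumor on the log2(normalized count + 1) scale, with Control tumors in blue, FF-10101 tumors in red, marker shape giving the replicate number and bars the group means of these values. *S100a8*, *S100a9*, *Lcn2* and *Stfa2l1* do not overlap between groups, *Csf3r* overlaps through Control 1, and *Stfa2* and *Ngp* lie at 0 in all tumors.

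*Csf3r*, the G-CSF receptor, was uniform in the FF-10101 tumors and overlapped with Control through a single tumor. *Csf3r* (ENSMUSG00000028859.15) had 669, 221 and 166 normalized counts in Control and 594, 654 and 658 in FF-10101. Control 1 held the highest level of all 6 tumors, and Control tumors 2 and 3 lay far below every FF-10101 tumor. The group means were 352 ± 276 and 635 ± 35.6 (SD, n = 3 each), and the log2 fold change was 1.12 (0.07 to 2.18, adjusted p = 0.292, limma). Without Control 1 *Csf3r* rose by a log2 fold change of 1.72 (1.33 to 2.11, adjusted p = 0.000875, limma), and without Control 3 the log2 fold change was 0.72 (adjusted p = 0.688, limma). *Cxcr2*, the chemokine receptor of mature neutrophils and no member, had 59.7, 35.9 and 31.1 in Control and 174, 205 and 234 in FF-10101. The groups did not overlap for *Cxcr2*, and Control 1 lay close to the other Control tumors. Its log2 fold change of 2.30 had an adjusted p of 0.0813 in limma with all tumors and 0.000573 without Control 1.

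*Lcn2*, a lipocalin of secondary granules that binds bacterial siderophores, was higher in FF-10101, with most of the level in 1 tumor. *Lcn2* (ENSMUSG00000026822.15) had 47.3, 12.0 and 21.1 normalized counts in Control and 51.9, 70.6 and 231 in FF-10101. The groups did not overlap, but Control 1 and FF-10101 1 were within 5 counts of each other and FF-10101 3 stood well above the rest. The means were 26.8 ± 18.3 and 118 ± 98.5 (SD, n = 3 each), and the log2 fold change was 2.0 (0.48 to 3.52, adjusted p = 0.242, limma). Without Control 1 *Lcn2* rose by 2.50 on the log2 scale (adjusted p = 0.0222, limma), and without FF-10101 3 the log2 fold change was 1.36 (adjusted p = 0.632, limma). *Lcn2* is also made by epithelial cells and macrophages. The 12 keratinocyte genes summed to 1425 in FF-10101 1 and 33.8 in FF-10101 3, the tumors with the lowest and the highest *Lcn2* of that group.

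*Retnlg*, a secreted resistin-like protein of neutrophils, overlapped between the groups. *Retnlg* (ENSMUSG00000022651.7) had 91.2, 373 and 263 normalized counts in Control and 124, 481 and 648 in FF-10101. The lowest value of each group was that of replicate 1, and the groups overlapped. The log2 fold change was 0.70 (−0.89 to 2.30, adjusted p = 0.632, limma), 0.11 without Control 1 (adjusted p = 0.908, limma) and 1.42 without FF-10101 1 (0.08 to 2.77, adjusted p = 0.283, limma). In Control 1, where *S100a8*, *S100a9* and *Csf3r* were at their highest among Control tumors, *Retnlg* was at its lowest. Among the other resistin genes, *Retnlb* had no read and *Retn* had 1 to 7 reads in Control and 3 to 26 in FF-10101. *Retnla*, which is made by macrophages and other myeloid cells, had 421, 277 and 206 in Control and 39.0, 272 and 1052 in FF-10101 and showed no common direction. *Retnlg* shared 5.51% of its stretches of 31 bases with *Retnla*, and the order of the tumors differed between these genes in Control and was the same in FF-10101.

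For *Retnlg* the tumors ranked within each group as they did for 3 of 6 genes of eosinophils, *Prg2*, *Ccr3* and *Il5ra*, a comparison chosen after the values were seen. *Prg2*, which encodes a major protein of eosinophil granules, had 12.4, 73.9 and 37.7 in Control and 26.0, 58.6 and 87.1 in FF-10101. *Ccr3*, the eotaxin receptor, had 41.6, 100.0 and 56.6 in Control and 42.8, 99.9 and 242 in FF-10101. As for *Retnlg*, replicate 1 was lowest in Control for both genes and in FF-10101 for both. *Il5ra*, the interleukin 5 receptor, followed the same order but had few reads, 4, 7 and 5 in Control and 3, 5 and 29 in FF-10101. *Siglecf* and *Ear2* did not share this order in Control. *Siglecf* had 40.5, 34.8 and 16.6 in Control and 10.7, 79.3 and 113 in FF-10101, and *Ear2* had 102, 110 and 87.6 in Control and 28.3, 93.4 and 172 in FF-10101. Control 1 was thus the highest Control tumor for *Siglecf* and Control 3 the lowest for both. *Epx*, another defining gene of eosinophils, had no read, and the 6 eosinophil genes summed to 201 to 326 in Control and 110 to 639 in FF-10101. The order was not particular to eosinophil genes. *Cebpe*, *Wfdc17* of the neutrophil cytosol list and *Cpa3* of mast cells ranked the tumors in the same way. *Cebpe* had 25.9, 32.6 and 29.9 in Control and 26.7, 54.3 and 74.7 in FF-10101. *Cpa3* had 40.5, 47.8 and 45.5 in Control and 101, 104 and 361 in FF-10101. The part of eosinophils in the *Retnlg* level was not tested.

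**Figure D2:**
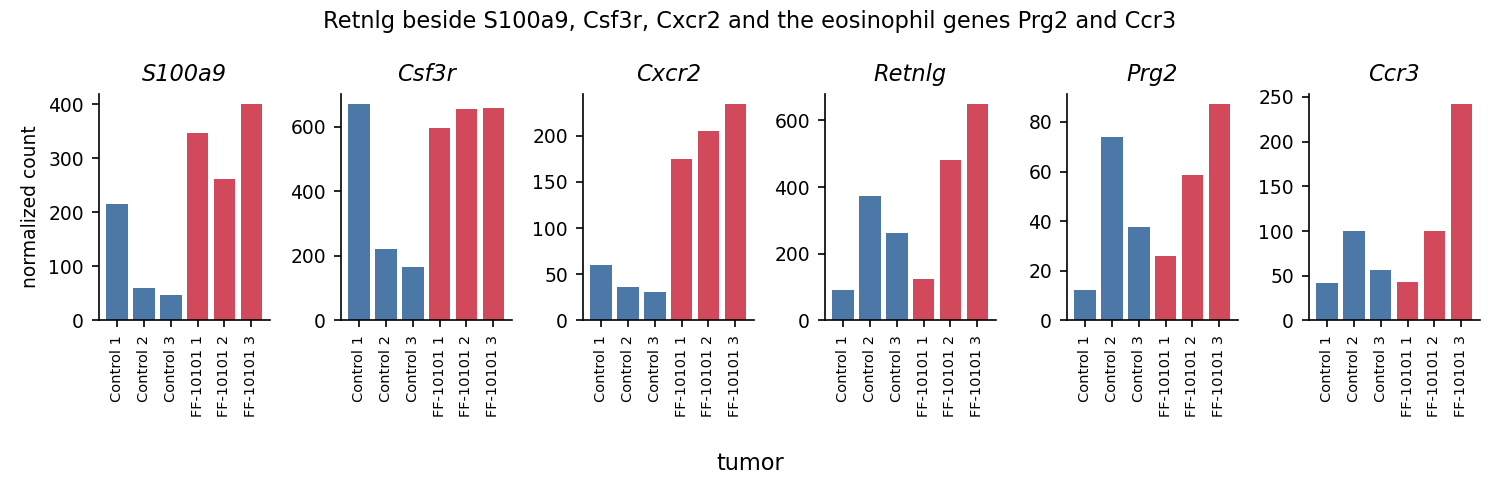
Normalized counts of 6 genes in each tumor, with Control in blue and FF-10101 in red and a separate linear axis from 0 for each gene. *Retnlg*, *Prg2* and *Ccr3* are at their group's lowest in Control 1 and FF-10101 1, whereas *S100a9*, *Csf3r* and *Cxcr2* are at their highest among Control tumors in Control 1.

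Among the 3 member stefins, most reads of the FF-10101 tumors fell on *Stfa2l1*, and it was higher in every FF-10101 tumor. *Stfa2l1* (ENSMUSG00000059657.6) had 2, 3 and 1 reads in Control and 29, 12 and 29 in FF-10101. The groups did not overlap, and Control 1 lay between the other Control tumors. As normalized counts the means were 2.21 ± 1.08 and 20.3 ± 6.57 (SD, n = 3 each), and the log2 fold change was 2.74 (1.32 to 4.16, adjusted p = 0.229, limma). It was 1.29 with a pseudocount of 10 and 0.89 on the deposited log2 values. The 6 reads in Control and 70 in FF-10101 give a ratio of read shares of 9.59 (95% exact interval 4.19 to 27.0, counting error only). *Stfa2l1* entered the fit only through its level in FF-10101, since its Control mean is below the minimum of 10. Without Control 1 it rose by 2.78 on the log2 scale (adjusted p = 0.0215, limma), and without FF-10101 1 or without FF-10101 3 it fell under the minimum and was not tested.

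*Stfa3* (ENSMUSG00000054905.3) had 0, 0 and 3 reads in Control and 12, 1 and 3 in FF-10101. The groups overlapped and FF-10101 1 alone stood above 3 reads. Its log2 fold change without a minimum count was 1.39 (−0.41 to 3.19, adjusted p = 0.546, limma). *Stfa2* (ENSMUSG00000022902.9) had no read in any tumor. Reads that it shares with *Stfa2l1* could have been assigned to *Stfa2l1*, so depth was not the sole limit for *Stfa2*. The sum of *Stfa2*, *Stfa2l1* and *Stfa3* was 2, 3 and 4 reads in Control and 41, 13 and 32 in FF-10101, without overlap. *Stfa2l1* made up 70.7% of that sum in FF-10101 1 (95% exact binomial interval 54.5% to 83.9%), 92.3% in FF-10101 2 (64.0% to 99.8%) and 90.6% in FF-10101 3 (lower bound 75%, upper 98.0%). The stefin sum had a log2 fold change of 2.53 (SE 0.56, adjusted p = 0.229, limma), 2.34 without Control 1 (adjusted p = 0.0235, limma) and 2.32 without FF-10101 1 (adjusted p = 0.253, limma). Like *Stfa2l1*, the sum passed the minimum only through FF-10101, with means of 3.32 ± 1.09 and 24.6 ± 9.21 normalized counts (SD, n = 3 each).

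The wider stefin A family divided by tumor. *Gm5483* had 9, 0 and 1 reads in Control and 26, 11 and 27 in FF-10101, so in each FF-10101 tumor it came within 3 reads of *Stfa2l1*. Its coding sequence was 77.0% identical to that of *Stfa2l1*, and it shared 45.3% of its stretches of 31 bases with 2010005H15Rik, which had 7, 10 and 3 reads in Control and 7, 5 and 24 in FF-10101. *Gm5483* was higher in every FF-10101 tumor, at a log2 fold change of 2.72 (adjusted p = 0.252, limma) and, without Control 1, a rise of 3.70 (adjusted p = 0.0135, limma). It too passed the minimum only through FF-10101, with means of 3.75 ± 5.56 and 18.6 ± 6.13 (SD, n = 3 each), and was not tested without FF-10101 1. *BC100530* was different, with 0, 0 and 8 reads in Control and 37, 0 and 1 in FF-10101. All but 1 of its reads lay in Control 3 and FF-10101 1, the tumors with reads of *Krt5* and *Krt14*. *Stfa1* had 0 reads in Control and 7, 1 and 3 in FF-10101, *Gm5416* had 1 read in all and *BC117090* none. *Stfa1* and *BC100530* were 97.9% identical over the coding sequence. Over the family, reads were 11, 3 and 13 in Control and 111, 26 and 63 in FF-10101, a ratio of read shares of 6.09 (4.06 to 9.47, counting error only), and the log2 fold change of the sum was 2.45 (0.99 to 3.90, adjusted p = 0.229, limma), 2.69 without Control 1 (adjusted p = 0.0233, limma) and 2.09 without FF-10101 1 (adjusted p = 0.263, limma). Without Control 1 the family sum passed the minimum only through FF-10101.

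Some epidermal genes moved with part of the stefin reads. The 12 keratinocyte genes summed to 52.9, 43.5 and 221 normalized counts in Control and 1425, 53.2 and 33.8 in FF-10101, and *Krt6a* had 304 reads in FF-10101 1 and 2 in Control 3. Others of the 12 differed, as *Krt10*, *Krt1* and *Lor* had 97, 15 and 25 reads in Control 3 and 50, 0 and 7 in FF-10101 1. In FF-10101 2 and FF-10101 3, *Krt5*, *Krt14* and *Krt6a* had no read, but *Krt10* had 25 and 22 reads and *Trp63* 16 and 14. In these 2 tumors *Stfa2l1* had 12 and 29 reads, *S100a8* 183 and 237 normalized counts and *S100a9* 262 and 400. *Stfa3* and *BC100530* had at most 3 reads in those tumors. The part of epidermis in the reads of FF-10101 1 was not tested.

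**Figure D3:**
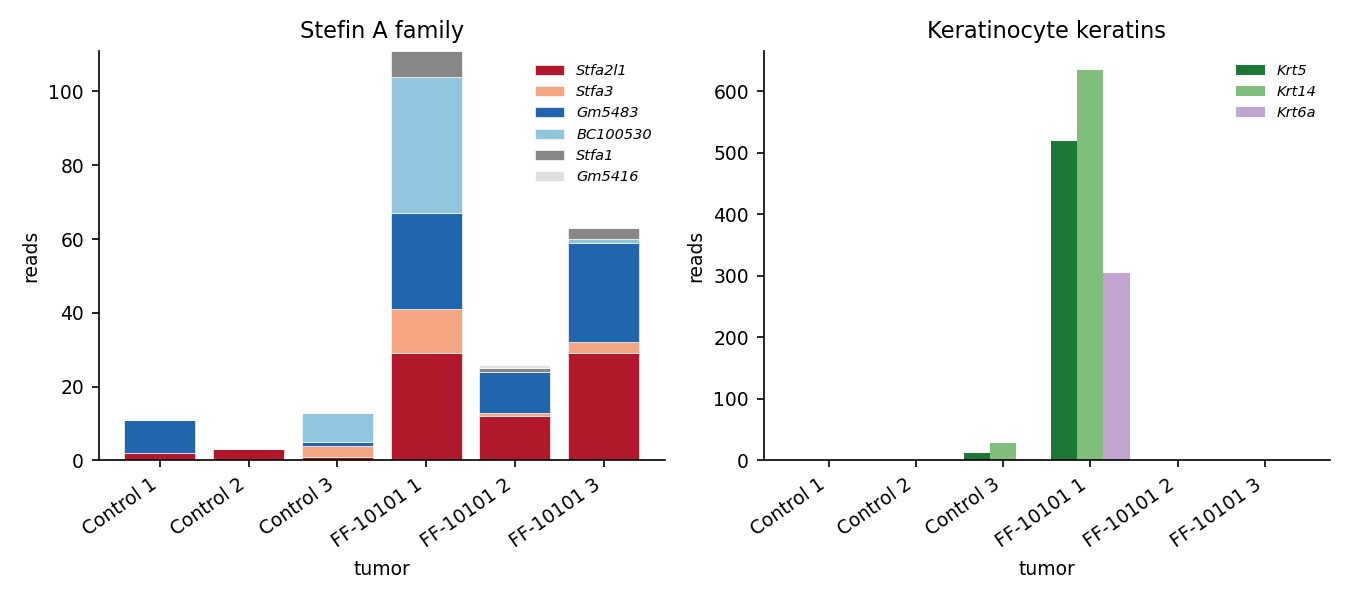
Reads of the stefin A family in each tumor, stacked by gene (left), and of 3 keratins of the epidermis (right), both on linear axes from 0. *Stfa2l1* and *Gm5483* make up most of the reads in FF-10101 2 and FF-10101 3, and *BC100530* and the keratins appear mainly in FF-10101 1.

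Apart from *Lcn2*, several genes of granule filling in the marrow had few or no reads, although 10 of 15 listed secondary and tertiary granule genes reached the minimum mean of 10. *Ngp* (ENSMUSG00000032484.9), a secondary granule protein that is among the most abundant transcripts of myelocytes, had no read. *Ly6g* (ENSMUSG00000022582.5), which encodes the surface antigen that defines mouse neutrophils, had 1 read in FF-10101 1 and none in the other tumors, so both groups lay under the limit set by finding no read. *Camp* also had 1 read in all, and *Ltf*, lactoferrin, had 0 to 9 reads in Control and 5 to 10 in FF-10101. Of the primary granule genes, *Ms4a3* had no read, *Elane* had at most 2 reads, *Mpo* at most 8 and *Prtn3* 3 to 15. *Ctsg*, cathepsin G, had 3, 1 and 0 reads in Control and 7, 9 and 12 in FF-10101 and was the sole primary granule gene without overlap (adjusted p = 0.295, limma without a minimum). *Ctsg* is also made by mast cells, and the 6 genes of mast cells and basophils summed to 230 to 422 normalized counts in Control and 499 to 1207 in FF-10101. Among the members with signal, *Lcn2* encodes a granule protein, the products of *S100a8* and *S100a9* are cytosolic and that of *Csf3r* lies on the surface.

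Counted together, 0 of the 6 members tested had an adjusted p under 0.05 in limma with all 6 tumors, and 5 of the 6 had an unadjusted p under 0.05, against 16.3% of all genes. Over all 13963 genes, 6 were called, or 0.0430%. With limma-voom on the recovered reads the count of members was also 0. Values in FF-10101 were above all Control values for 4 of the 6, *S100a8*, *S100a9*, *Lcn2* and *Stfa2l1*, against 10.9% of all genes. The median log2 fold change of the 6 was 1.77, beside 0.02 over all genes. Without Control 1, 5 of 6 members rose, all but *Retnlg*, against 12.0% of genes that rose in that fit. With limma's array weights the same 5 genes rose, against 32.0% of all genes. That fit rested mainly on 1 tumor per group, as the weights were 0.139, 5.39 and 0.475 for Control and 0.406, 8.08 and 0.859 for FF-10101. Leaving out any tumor other than Control 1 called 0 members. *Stfa2l1* passed the minimum only through FF-10101, so a high value there was a condition of its being counted. The members were chosen with earlier results of these data known, so these shares are not independent support. Several members also varied together. Over the 6 tumors Pearson r was 0.994 between *S100a8* and *S100a9*, 0.961 between *S100a9* and *Csf3r* and −0.03 between *S100a9* and *Retnlg*.

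**Figure D4:**
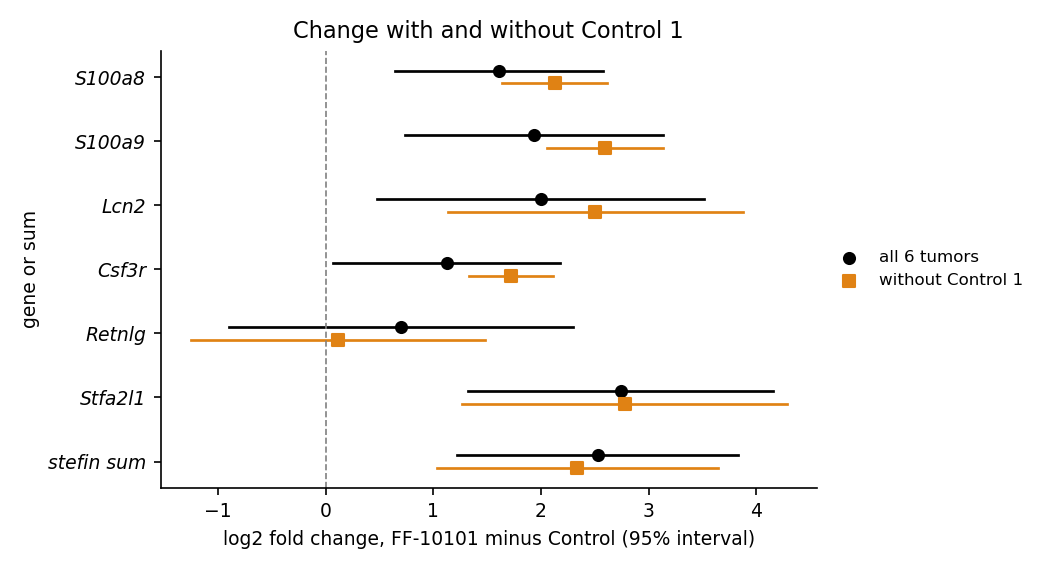
Log2 fold changes of the 6 tested members and the stefin sum, with 95% intervals from limma, for all 6 tumors (black circles) and without Control 1 (orange squares). Without Control 1 the intervals of *S100a8*, *S100a9* and *Csf3r* narrow, and those of *Retnlg* include 0 in both fits.

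Ratios within a tumor do not depend on how the tumors were scaled, apart from a pseudocount of 1, and 6 of them were compared. The test was an exact permutation of the tumor labels, two-sided, whose smallest possible p is 0.1 for 3 tumors against 3. The ratio of *S100a9* to *Csf3r* was 0.323, 0.276 and 0.287 in Control and 0.584, 0.400 and 0.608 in FF-10101. Control 1 was close to the other Control tumors in this ratio, unlike in the level of either gene, and the groups did not overlap (log2 difference 0.81, exact p = 0.1, adjusted over the 6 ratios 0.3). *Cxcr2* over *Csf3r* was 0.0892, 0.163 and 0.187 in Control and 0.293, 0.314 and 0.355 in FF-10101, again without overlap (log2 difference 1.17, exact p = 0.1, adjusted 0.3). *S100a8* over *S100a9* was 0.677, 0.804 and 1.05 in Control and 0.696, 0.701 and 0.593 in FF-10101. These overlapped between groups through Control 1 (log2 difference −0.33, exact p = 0.3). The difference was −0.47 without Control 1 and −0.16 without Control 3. For *S100a8*, *Lcn2* and *Retnlg* over *Csf3r* the log2 differences were 0.49 (exact p = 0.2), 0.87 (exact p = 0.3) and −0.42 (exact p = 0.6). *Retnlg* over *Csf3r* ranged from 0.136 in Control 1 to 1.69 in Control 2, the widest range of the 6 ratios on the log2 scale.

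**Figure D5:**
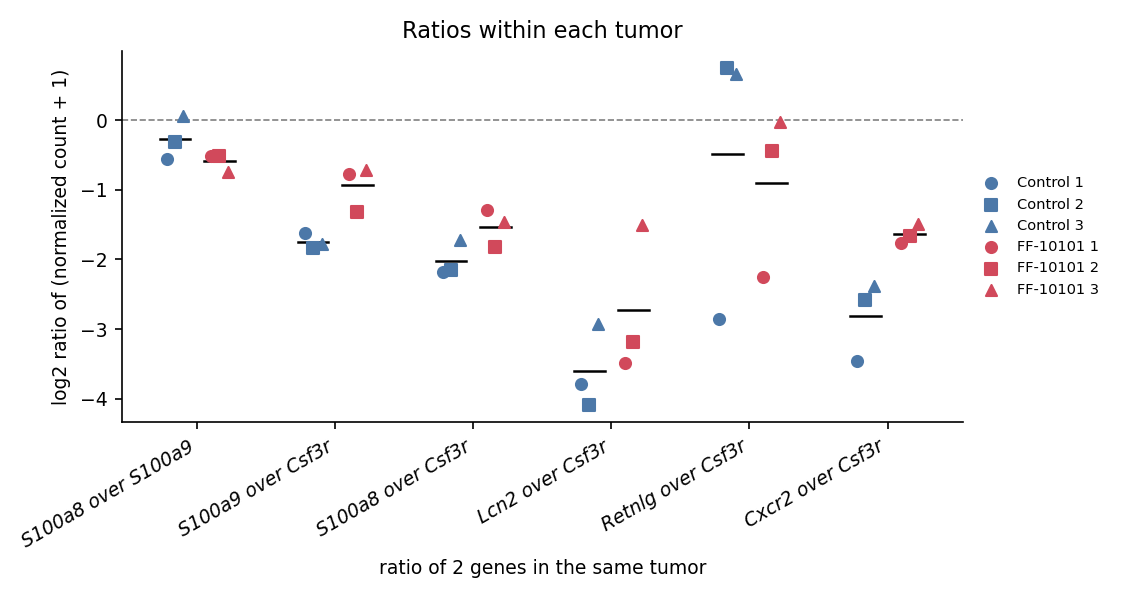
Log2 ratios of (normalized count + 1) of 2 genes in each tumor, with Control in blue, FF-10101 in red, marker shape giving the replicate number and bars the group means. *S100a9* over *Csf3r* and *Cxcr2* over *Csf3r* do not overlap between groups, and *Retnlg* over *Csf3r* spreads most within each group.

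Per kilobase of the longest coding transcript, which allows levels to be compared between genes, *Retnlg* was the highest member in both groups, with 409 ± 239 normalized counts per kilobase in Control and 705 ± 451 in FF-10101 (SD, n = 3 each). *S100a9* followed with 209 ± 180 and 648 ± 134, then *S100a8* with 168 ± 115 and 454 ± 66.5, and *Csf3r* with 101 ± 79.2 and 182 ± 10.2. In FF-10101 the ranges of *Retnlg* and *S100a9* overlapped, whereas those of *S100a9*, *S100a8* and *Csf3r* were separate from each other. *Lcn2* had 29.3 ± 20.0 and 129 ± 108, and its FF-10101 range included that of *Csf3r*. In Control the ranges of each neighboring pair down to *Lcn2* overlapped. *Stfa2l1* had 5.27 ± 2.57 and 48.5 ± 15.7, and *Stfa3* 2.69 ± 4.66 and 10.5 ± 10.4.

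Of 83 tested genes in the lists, which include the members, limma with all 6 tumors called 0 and limma-voom called 0, while 29 had an unadjusted p under 0.05, against 16.3% of all genes. Without Control 1, 37 of 82 rose and 4 fell, against 12.0% and 9.97% of all genes. Counts of single lists below are to be read against these shares and against the 10.9% of all genes that were higher and 9.37% that were lower without overlap. The 37 include *Stfa2l1*, *Gm5483*, *Mmp8* and *Cxcl3*, which in that fit passed the minimum only through FF-10101. *Cd177*, also tested, passed in the same way, with 7.61 and 6.66 normalized counts in Control 2 and Control 3. The lists, like the members, were chosen with earlier results of these data known. Of 10 tested secondary and tertiary granule genes, 3 were higher and 1 lower without overlap, and 5 rose and 1 fell without Control 1. *Chil3*, a chitinase-like protein of neutrophils and macrophages, had 992, 197 and 152 normalized counts in Control and 1230, 1623 and 2815 in FF-10101 (log2 fold change 2.52, adjusted p = 0.229, limma, and 3.35 with adjusted p = 0.00069 without Control 1). *Chil3* was thus higher in every FF-10101 tumor, with Control 1 closest to them. *Lyz2*, lysozyme of macrophages and neutrophils, was lower in every FF-10101 tumor, 42373, 31642 and 48996 against 12842, 24525 and 23652 (log2 fold change −1.05, adjusted p = 0.229, limma, and 0.0491 without Control 1). Collagenase *Mmp8* had 42, 4 and 0 reads in Control and 39, 38 and 88 in FF-10101, overlapping through Control 1 (log2 fold change 2.88, adjusted p = 0.308, limma, and 4.34 with adjusted p = 0.00847 without Control 1). Without Control 1 *Mmp8* passed the minimum only through FF-10101. *Mmp9*, gelatinase, had 800, 1537 and 1369 normalized counts in Control and 1715, 952 and 780 in FF-10101. *Mmp9* showed no common direction, and it is also made by macrophages and tumor cells.

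Of 12 tested surface genes, 2 were higher without overlap, a share near the 10.9% of all genes, and 8 rose without Control 1, against 12.0%. Among the 12, *Fpr1* had 2.17 and 12.2 normalized counts in Control 2 and Control 3. Without Control 1 it thus passed the minimum only through FF-10101. *Il1r2*, the decoy receptor of interleukin 1, had 272, 47.8 and 73.2 in Control and 200, 219 and 346 in FF-10101, and rose by 2.05 on the log2 scale without Control 1 (adjusted p = 0.00378, limma). With Control 1 its groups overlapped, as those of *Csf3r* did, and the log2 fold change was 1.32 (−0.03 to 2.67, adjusted p = 0.317, limma). *Mrgpra2b* had 3, 0 and 2 reads in Control and 11, 6 and 13 in FF-10101. Of 17 tested cytosolic and secreted genes, 8 were higher without overlap, against 10.9%, and 9 rose without Control 1. *Hdc*, histidine decarboxylase, which is also made by mast cells and basophils, had 136, 30.4 and 26.6 in Control and 256, 238 and 290 in FF-10101 (log2 fold change 2.41, adjusted p = 0.229, limma, and 3.15 without Control 1). The medians of these lists with all tumors were 0.85 for granule, 1.06 for surface and 1.05 for cytosolic and secreted genes.

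Ligands that draw neutrophils were higher in FF-10101 for 3 of the 6 genes. *Cxcl1* had 221, 40.2 and 41.0 normalized counts in Control and 533, 250 and 253 in FF-10101. *Cxcl2* had 28.1, 15.2 and 18.9 in Control and 130, 78.2 and 75.6 in FF-10101. *Cxcl5* had 247, 48.9 and 27.7 in Control and 736, 481 and 377 in FF-10101. None of these overlapped between groups, and FF-10101 1 was the highest tumor for each. Their log2 fold changes were 2.16, 2.13 and 2.85, with adjusted p of 0.229, 0.184 and 0.229 in limma. *Cxcl3* overlapped through Control 1, *Ppbp* was highest in Control 1 with 38 reads, and *Pf4*, a platelet chemokine also made by macrophages, was lower in every FF-10101 tumor at a log2 fold change of −1.26 (adjusted p = 0.229, limma). Without Control 1, *Cxcl1*, *Cxcl2*, *Cxcl3* and *Cxcl5* rose and *Pf4* fell, although *Cxcl3* then passed the minimum only through FF-10101. The gene of G-CSF itself, *Csf3*, had 0, 2 and 2 reads in Control and 8, 3 and 1 in FF-10101, and *Cebpe*, the factor needed for secondary granules, had 25.9 to 32.6 normalized counts in Control and 26.7 to 74.7 in FF-10101.

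Cysteine cathepsins, the enzymes that stefins inhibit, were measured as a list of 7 genes. Of these, 1 was higher without overlap, a share near that of all genes. It was *Ctsk*, with 500, 665 and 741 in Control and 892, 896 and 1027 in FF-10101 (log2 fold change 0.58, adjusted p = 0.235, limma). *Ctsb* and *Ctsl* had log2 fold changes of 0.08 and 0.04, and the median of the list was 0.04. Without Control 1 these were 0.47 and 0.03, with a median of 0.29. *Ctss*, of antigen-presenting cells, was the sole cathepsin that rose without Control 1, by 1.09 on the log2 scale (adjusted p = 0.0271, limma). With all tumors its groups overlapped, at a log2 fold change of 0.58 (adjusted p = 0.543, limma). *Cstb*, stefin B, which most cells make, had 2639, 2023 and 2507 in Control and 2504, 2739 and 2827 in FF-10101, and *Cst3*, cystatin C, was lower in every FF-10101 tumor at a log2 fold change of −0.46 (adjusted p = 0.337, limma). *Tlr4*, a receptor of calprotectin, had a log2 fold change of 0.21 (adjusted p = 0.777, limma). Of the 9 tested receptors and other S100 genes, *S100a4* alone was higher without overlap, at a log2 fold change of 0.48, which is a share near the 10.9% of all genes. None was called without Control 1. Among the genes of iron handling listed with *Lcn2*, *Slc40a1*, the iron exporter, was higher in every FF-10101 tumor with 0.91 (adjusted p = 0.229, limma).

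Marker sums of neutrophils and other cells are given as levels, with no test. The 12 neutrophil markers, which include members, summed to 2180 to 2608 normalized counts in Control and 3375 to 3875 in FF-10101, with 4 of 12 higher without overlap, against 10.9% of all genes, and none lower. *Mmp9* alone held 800 of 2608 in Control 1, 1537 of 2423 in Control 2 and 1369 of 2180 in Control 3. In FF-10101 it held 1715 of 3813, 952 of 3375 and 780 of 3875. The narrow Control range of this sum thus rests on *Mmp9*. The 8 macrophage markers summed to 37382 to 63327 in Control and 22405 to 31673 in FF-10101, with 5 of 8 lower without overlap, against 9.37% of all genes. *Ly6c2* of monocytes had 1301, 223 and 201 in Control and 595, 1244 and 1766 in FF-10101, overlapping through Control 1 (log2 fold change 1.49, adjusted p = 0.342, limma, and 2.36 with adjusted p = 0.00582 without Control 1), and the 8 monocyte markers summed to 13116 to 27179 and 21315 to 26488. The 6 fibrosarcoma and fibroblast markers summed to 240949, 116517 and 91789 in Control and 272895, 191486 and 179650 in FF-10101, which overlapped through Control 1 alone, as *Csf3r* did. The part of these cells in the levels of *S100a8*, *S100a9* and *Lcn2*, which monocytes and macrophages can also express, was not tested.

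Outside the lists, the genes most like the members were found from the correlation of log2(normalized count + 1) with the mean of the 6 standardized members over the 6 tumors. They were *Hoxa13*, *Timp3*, *Rab2b*, *Dnajb11*, *Naalad2*, *Pcdhb16*, *Mirt2*, *Dync1li2*, *Cpxm1* and *Atp11b*, with Pearson r from 0.988 to 0.999. The tumors form 2 groups, which alone can give high values among 13963 genes. *Timp3*, an inhibitor of metalloproteinases, had 858, 475 and 390 normalized counts in Control and 1105, 1399 and 2063 in FF-10101. As for *S100a9*, Control 1 was the highest Control tumor and below every FF-10101 tumor.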

How the data were processed

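Bulk RNA sequencing of 6 tumors was analysed, 3 per group by the sample labels. The authors trimmed reads with fastp 0.19.5, quantified them with Salmon 1.5.1 on GENCODE vM27 (GRCm39) and used DESeq2 1.22.1. They deposited log2 values per gene and tumor that follow the variance-stabilizing form. Inverted, 100% of the 325854 values were whole reads, to within 2.68e-09 of a read, and reads divided by the tumor's size factor are called normalized counts. Salmon divides reads shared by similar transcripts by estimation.

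The members and lists were chosen with earlier results of these data known. R 4.3.3 and limma 3.58.1 (lmFit, eBayes with a trend) were run on log2(normalized count + 1) over the 13963 genes whose mean was 10 or more. Benjamini-Hochberg adjustment was used at 0.05. Fold changes of low genes come out too small on this log2 scale. Each stefin sum was tested in a fit of its own, in which a row of summed counts replaced the rows of its genes. Members under the minimum were taken from the fit without one. Of the gene IDs, 51484 matched a symbol in GENCODE vM21 (GRCm38). The kit as named does not mark strand, and no member overlapped another gene in that annotation. All 10 members matched a RefSeq upstream sequence. Named genes were the 10 members, all genes with a read in the stefin A, primary granule, resistin and ligand lists, 14 chosen genes of neutrophils, cathepsins and monocytes, from each other list the 2 largest rises and 2 largest falls without overlap, and the 10 genes most correlated with the members. The keratinocyte and eosinophil genes, *Adgre1*, *Mrc1*, *Wfdc17*, *Cpa3*, *Cd177*, *Fpr1* and the genes sharing sequence with a member fall outside this rule. They were named after their values were seen. Alternatives covered pseudocounts, minimum counts, scaling, trend, array weights, limma-voom, a replicate block and leaving out each tumor. The fits were tested on simulated data. The flow cytometry of the study was not analysed here.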

Additional observations from a re-analysis of the deposited data

How the results depend on the processing

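The count of members called was 0 with all 6 tumors and 0 under each other setting except 5 with array weights and 0 to 5 when 1 tumor was left out, the 5 being without Control 1. For the 112 listed genes in the table the count was 0, 1 without a minimum (*Cxcr2*), 65 with array weights and 0 to 41 when 1 tumor was left out. The log2 fold change of the stefin sum, 2.53, was 1.94 with array weights, where it passed, and 2.32 to 2.87 when 1 tumor was left out, passing at 2.34 without Control 1. The array weights were 0.139, 5.39 and 0.475 for Control and 0.406, 8.08 and 0.859 for FF-10101, so that fit rests mainly on Control 2 and FF-10101 2. Of the 6 members followed across settings, none reversed its direction, in 17 settings each and 14 for *Stfa2l1*, and *Retnlg* ranged from 0.11 to 1.42 without passing in any. The scale moved the stefin sum most, to 1.34 with a pseudocount of 10 and 0.90 on the deposited log2 values. With the replicate block the log2 fold change of the stefin sum was 2.53 (adjusted p = 0.501, limma) and 0 members were called. Tumors with the same number did not deviate together (correlations −0.29, −0.04 and −0.28), so the numbers do not pair them. At a minimum mean of 50, *Stfa2l1* and the stefin sum could not be tested. With 3 tumors per group, whether the members pass depends on Control 1, and *Ngp* and *Ly6g* lie below what this depth can show. *Stfa2* had no read either, but its reads shared with *Stfa2l1* are divided by estimation.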
